A study of Mus musculus with 12 samples.

Results

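The mitochondrial ribosomal proteins were followed across the livers of wild-type mice and mice lacking SIRT3 on a standard and a high-fat diet. Members were all genes of the array annotation whose symbol starts with Mrpl or Mrps followed by a number. The rule found 77 of the 19938 genes tested, 48 named for the large subunit and 29 for the small subunit, and all 77 had a value on every array. Mrpl53 shares its probe set with Ccdc142 and was left out.

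The series holds 12 Affymetrix arrays of whole-liver total RNA from 129Sv mice aged 12 weeks, all fasted for 24 h before killing. Wild-type mice (SIRT3WT in the labels) and SIRT3 knockout mice ate a standard diet or, from weaning, a Western diet with 42% fat, which gives 4 groups of 3 arrays. The labels give neither the sex of the mice nor whether livers were pooled, and the knockout is not described further. Values are deposited log2 expression values made with RMA, so a difference of 1 is a doubling.

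Mitochondria keep their own ribosome, which translates the few membrane proteins of the respiratory chain that mitochondrial DNA encodes. Its RNAs come from mitochondrial DNA, while all its proteins are encoded in the nucleus, made in the cytosol and imported. SIRT3 is a protein deacetylase of the mitochondrial matrix that uses NAD, and MRPL10 of the large subunit has been reported as one of its substrates, so a study of SIRT3 loss asks in part what happens to mitochondrial translation. The arrays measure messenger RNA and not acetylation, protein or assembled ribosomes.

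The promoters of 4 members are shown because the results below turn on them: Mrpl17, Mrpl20 and Mrps31 passed the test between diets, and Mrps18a had the smallest p of the family between genotypes on the standard diet. Each is the 250 bases before the RefSeq transcription start in GRCm38.p6, the reference mouse genome and not that of 129Sv, read 5′ to 3′. Capitals mark matches to the letters searched, the NRF1 half-sites GCGC and TGCGC with any 1 base between them, CCGGAAG for ETS factors such as GABP, and AAGATGGC for YY1, each on both strands. NRF1, GABP and YY1 are known nuclear regulators of genes for mitochondrial proteins.
Mrpl17, chr7:105811088-105811337, minus strand: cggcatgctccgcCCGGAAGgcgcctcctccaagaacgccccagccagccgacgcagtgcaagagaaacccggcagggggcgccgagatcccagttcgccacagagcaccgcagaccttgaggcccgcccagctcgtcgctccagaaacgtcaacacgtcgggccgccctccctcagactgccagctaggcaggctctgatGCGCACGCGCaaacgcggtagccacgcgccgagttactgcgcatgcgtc
Mrpl20, chr4:155802628-155802877, plus strand: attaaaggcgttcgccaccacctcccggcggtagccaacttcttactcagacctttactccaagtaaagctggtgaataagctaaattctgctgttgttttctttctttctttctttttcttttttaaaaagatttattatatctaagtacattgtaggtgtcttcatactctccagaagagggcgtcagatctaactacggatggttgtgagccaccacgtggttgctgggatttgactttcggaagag
Mrps31, chr8:22411090-22411339, plus strand: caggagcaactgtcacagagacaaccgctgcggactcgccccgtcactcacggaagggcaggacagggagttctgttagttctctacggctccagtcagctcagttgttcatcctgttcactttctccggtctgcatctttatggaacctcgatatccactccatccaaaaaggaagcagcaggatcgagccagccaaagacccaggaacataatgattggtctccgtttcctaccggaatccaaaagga
Mrps18a, chr17:46110754-46111003, plus strand: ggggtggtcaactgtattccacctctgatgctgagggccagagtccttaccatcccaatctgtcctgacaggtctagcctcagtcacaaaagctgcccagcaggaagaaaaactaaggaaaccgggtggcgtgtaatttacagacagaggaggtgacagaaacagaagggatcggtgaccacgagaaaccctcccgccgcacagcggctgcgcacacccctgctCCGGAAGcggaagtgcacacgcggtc

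In the bases shown, the Mrpl17 promoter held 1 match for NRF1 and 1 for ETS, that of Mrps18a held 1 for ETS, and those of Mrpl20 and Mrps31 held none. RefSeq promoters were found for 68 of the 77 members, and were searched over 300 bases, the 250 before and the 50 after the start. Over these 300 bases Mrps18a also held 1 YY1 match, which reached past the start and is not marked above. The ETS letters occurred in 25 of the 68 (36.8%), against 13.6% of the 15563 array genes with a promoter. The YY1 letters occurred in 12 members (17.6%, against 3.77%), and the NRF1 letters in 13 (19.1%, against 7.87%). At least 1 of these motifs was present in 42 of the 68 members (61.8%), against 22.3% of genes. A match is a run of letters and no measured site.

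Sirt3 itself was read first. On the standard diet its level was 8.97, 9.04 and 9.13 in the wild type and 8.83, 8.94 and 8.95 in the knockout. On the high-fat diet it was 9.29, 9.14 and 9.13 against 8.92, 8.49 and 8.87. Knockout arrays lay below wild-type arrays on both diets without overlap, but the differences were small, -0.14 (SE 0.108, adjusted p = 0.66) and -0.42 (SE 0.108, adjusted p = 1). The labels do not say which part of the gene was removed, so the probe set may lie outside it and then checks nothing.

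Several arrays stood apart in other genes. Liver markers were even, with the mean of 9 hepatocyte markers between 13.45 and 13.56 on every array. Acute phase genes were high on knockout standard replicate 1, 3.81 above their mean over arrays, and on wild-type high-fat replicate 3, 0.747 above it. The 4 skeletal muscle markers averaged 8.09 on 1 knockout array of the standard diet and 6.40 to 6.66 on all arrays of the other groups. Knockout high-fat replicate 1 was the lowest array of its group for 54 of the 77 members. The part of these arrays in the results was not tested other than by leaving each out, as given where it matters. Whole liver holds several cell types, and fewer cells of a type cannot be told apart from less RNA per cell.

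The members varied little over the arrays. Their means over all arrays ranged from 6.18 to 10.0, with a median of 8.45, and levels of different probe sets do not rank genes. No member spanned more than 0.77 over the 12 arrays. The median residual SD within groups was 0.118 for members, 0.135 for the 11269 genes within the members' range of levels, and 0.14 for all genes. Mrps23 (0.0384), Mrpl3 (0.05) and Mrpl30 (0.0554) varied least. The median half-width of a member's 95% confidence interval was 0.215 for a difference within a diet or genotype.

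On the standard diet no mitochondrial ribosomal protein transcript passed the test between genotypes, and most lay slightly lower in the knockout. None of the 77 had an adjusted p under 0.05 with limma, and neither did nearly any other gene (0.00502% of all genes). The median difference of members was -0.08, with 63 of 77 below 0 (81.8%, against 39.8% of all genes). Over all genes the median was 0.04, and over genes of the same range of levels 0.01. The latter average a lower level than the members and are not matched to them. An unadjusted p under 0.05 was found for 7 members lower in the knockout (9.09%, against 2.61% of genes) and for 0 higher (against 7.12%). All knockout arrays lay below all wild-type arrays for 10 members (13.0%, against 4.52%), and the reverse held for 0 (against 9.88%). Other sets were above 0 in the same comparison. These included 6 of 6 acute phase genes (median 1.54), highest on knockout standard replicate 1, and 4 of 4 skeletal muscle markers (0.51), highest on replicate 2. They also included 5 of 5 bile duct markers (0.20), 5 of 5 lymphocyte markers (0.16) and 7 of 8 Kupffer cell and macrophage markers (0.09). The 1244 chemosensory receptors, genes of smell and taste with no known role in liver, had a median of 0.10, with 23.4% below 0. Each of these sets had 0 called. Their part in the result was not tested.

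Mrps18a codes for a relative of a bacterial small-subunit protein that sits in the large subunit of the mammalian mitochondrial ribosome. Its level on the standard diet was 8.96, 9.15 and 9.06 in the wild type and 8.87, 8.84 and 8.72 in the knockout. The groups did not overlap, and the difference was -0.25 (SE 0.0874, adjusted p = 0.502 with limma). Mrps17, a small-subunit protein with a bacterial counterpart, read 8.08, 7.94 and 8.01 against 7.85, 7.58 and 7.76. Here too the knockout arrays were all lower, with a difference of -0.28 (SE 0.109, adjusted p = 0.502 with limma). Mrpl13, of the large subunit, read 7.89, 7.99 and 8.02 against 7.54, 7.70 and 7.78, without overlap and with a difference of -0.29 (SE 0.113, adjusted p = 0.502 with limma). The other members with an unadjusted p under 0.05 were Mrps15 (-0.21), Mrpl15 (-0.21), Mrps22 (-0.28) and Mrps33 (-0.36), and in the last 3 the groups overlapped.

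The members with the smallest p on the higher side were all small-subunit genes with bacterial counterparts, and none came near the threshold. Mrps10 differed by 0.16 (SE 0.119), Mrps16 by 0.12 (SE 0.102) and Mrps24 by 0.07 (SE 0.0925), with adjusted p-values of 0.65, 0.699 and 0.804 in limma. Without knockout standard replicate 2 these differences were 0.09, 0.03 and -0.002, and without wild-type standard replicate 1 that of Mrps10 was 0.07.

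Mrpl10, whose protein is the reported SIRT3 substrate and part of the stalk that recruits translation factors, read 9.09, 9.30 and 9.17 in the wild type and 9.09, 9.27 and 9.09 in the knockout on the standard diet. The groups overlapped and the difference was -0.03, with a 95% interval from -0.21 to 0.15. On the high-fat diet Mrpl10 read 9.16, 9.11 and 9.20 against 9.04, 9.09 and 9.09. The knockout arrays were all lower there, with a difference of -0.09 and an interval from -0.27 to 0.09. Mrpl12, the partner of MRPL10 in the stalk, which is also reported to bind the mitochondrial RNA polymerase, differed by 0.04 (interval -0.14 to 0.23) on the standard diet and by 0.07 (interval -0.12 to 0.26) on the high-fat diet. Neither passed the test on either diet, and the intervals bound a change of either transcript to less than 0.3 in either direction. With 1 array left out the standard-diet differences ran from -0.10 to 0.02 for Mrpl10 and from -0.02 to 0.10 for Mrpl12.

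**Figure D1:**
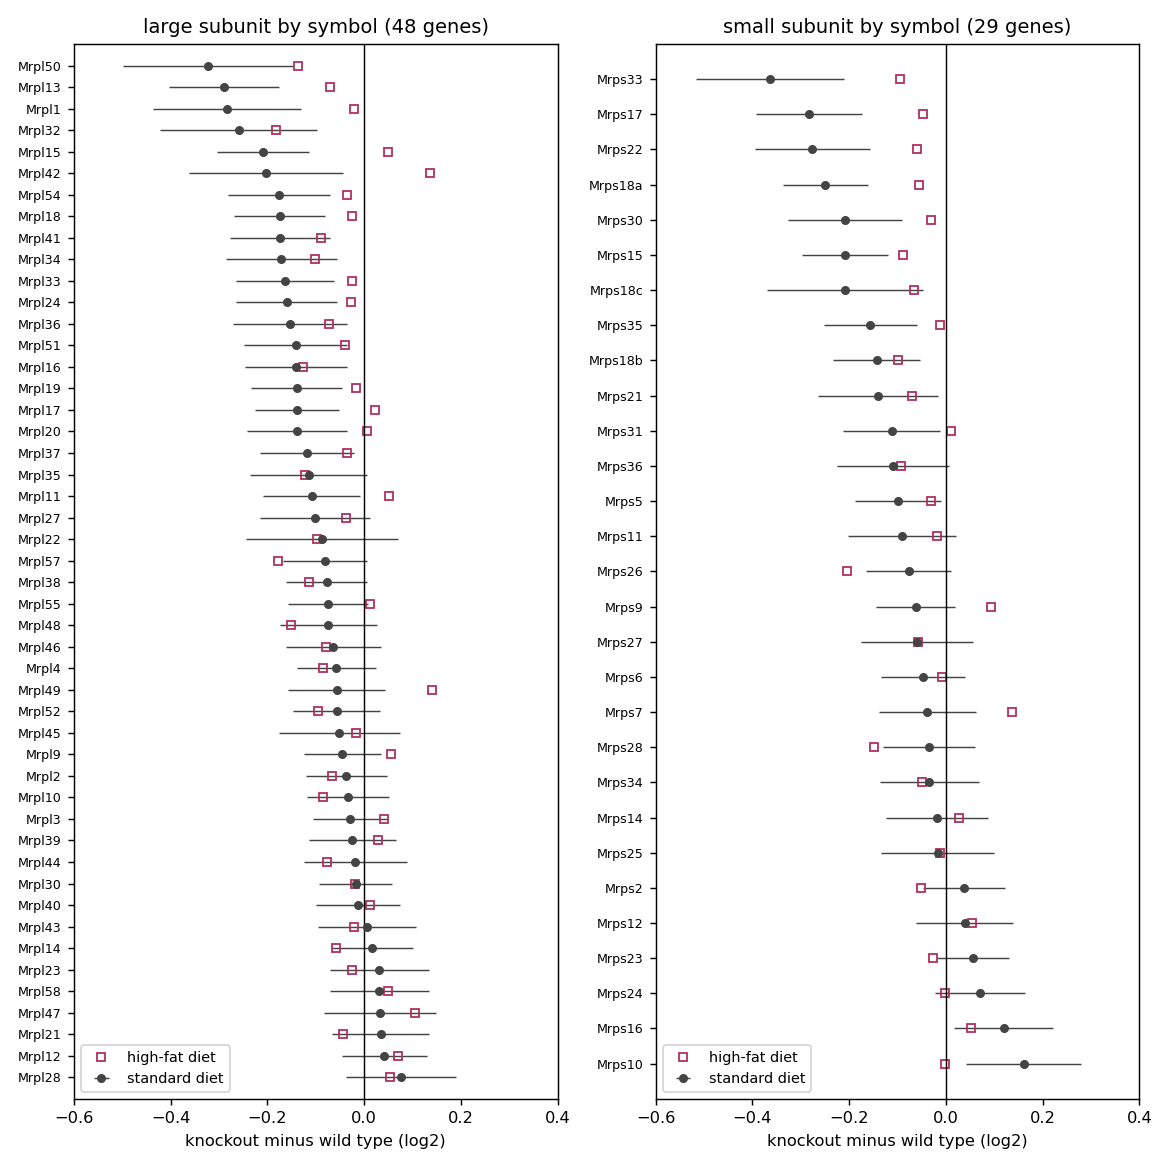
Differences between knockout and wild type in log2 units for each of the 77 genes, large subunit on the left and small on the right, ordered by the standard-diet value. Filled circles are the standard diet with 1 standard error, open squares the high-fat diet; 63 of 77 circles lie left of 0, and no gene passed the test on either diet.

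On the high-fat diet the differences between genotypes were small. No member was called (0% of all genes were), the median difference was -0.03, and 56 of 77 lay below 0 (72.7%, against 56.9% of all genes). The median was -0.02 over all genes and -0.03 over genes of the same range of levels. Without knockout high-fat replicate 1 the median over members turned to 0.02, and with array weights to 0.002. It was -0.09 without knockout high-fat replicate 3 and -0.05 without wild-type high-fat replicate 1. One member had an unadjusted p under 0.05 (1.95% of genes did on the lower side and 0.913% on the higher side). This was Mrps26, a small-subunit protein without a bacterial counterpart, at 8.96, 9.00 and 9.18 in the wild type and 8.80, 8.82 and 8.91 in the knockout. The groups did not overlap, with a difference of -0.20 (SE 0.0886, adjusted p = 1 with limma).

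Mrpl57 (-0.18) and Mrps28 (-0.15) followed on the lower side of that comparison, and Mrpl49 (0.14), Mrps7 (0.14) and Mrps9 (0.09) on the higher side, all with an adjusted p of 1. The arrays did not overlap for 3 members lower in the knockout, Mrpl10, Mrpl57 and Mrps26 (4.27% of genes), and for 1 higher, Mrps9 (2.41%). Mrps7 depended on 1 array: wild-type high-fat replicate 3 read 9.62 and the others of its group 9.28 and 9.17, and without it the difference was 0.27.

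Averaged over diets, 0 members were called (0% of genes), the median was -0.07 (-0.04 without knockout high-fat replicate 1), and 59 of 77 lay below 0 (45.8% of genes did). An unadjusted p under 0.05 was found for 5 members, all lower (2.65% of genes were lower and 3.99% higher at that level). Mrps18a (-0.15), Mrps15 (-0.15) and Mrpl13 (-0.18) had the smallest p on that side, each with an adjusted p of 0.739. By sign alone, 48 members were lower in the knockout on both diets, 6 were higher on both, 15 were lower on the standard diet only and 8 on the high-fat diet only.

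On the high-fat diet 3 members, Mrpl17, Mrpl20 and Mrps31, were lower in the wild type, and Mrpl17 also in the knockout. In the wild type 3 of 77 were called lower and 0 higher (3.90%), against 1.69% of all genes called lower, 4.3% called higher and 5.99% called in either direction, so the share of members called was near that of the array. The count was 1 without any 1 of the 3 wild-type standard arrays or without wild-type high-fat replicate 1, and 5 without wild-type high-fat replicate 3 or knockout high-fat replicate 1. The diets appear to have been normalized in separate RMA runs, since some probe sets have no value on any standard-diet array and a value on every high-fat array, so run and diet cannot be told apart. Chemosensory receptors were called in 139 of 1244 cases (11.2%) in the same comparison. With an offset between runs added to the squared standard error of each gene, with an SD of 0.214 taken from the chemosensory receptors, 0 members were called in either genotype. Of 5 lymphocyte markers, 4 were above 0 on the high-fat diet in the wild type, with Cd3e (0.45) and Cd79a (0.57) called, while Cd8a was at -0.29. Of 5 endothelial markers, 3 were above 0, with Stab2 (0.39) called. Also above 0 were 8 of 8 Kupffer cell and macrophage markers (median 0.12), 6 of 6 acute phase genes (0.75) and 4 of 6 stellate cell markers (0.27). Each of these 3 sets had 0 called. Of 9 hepatocyte markers, 4 were above 0 and 5 below (median -0.008). The mean of 5 lymphocyte markers was 5.26 to 5.35 on wild-type standard arrays and 5.46 to 5.69 on wild-type high-fat arrays. These levels are low, below the array medians of 6.34 to 6.47. The part of these sets in the result was not tested.

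Mrpl17 codes for a large-subunit protein with a bacterial counterpart at the exit of the peptide tunnel. Its level was 8.85, 9.07 and 8.99 in wild-type liver on the standard diet and 8.34, 8.41 and 8.39 on the high-fat diet. In the knockout it was 8.76, 8.85 and 8.89 on the standard diet and 8.41, 8.30 and 8.50 on the high-fat diet. All 6 high-fat arrays lay below all 6 standard-diet arrays, and the genotypes overlapped on both diets. The wild type differed by -0.59 (SE 0.0868, adjusted p = 0.00243 with limma), or 1.51-fold lower. The knockout differed by -0.43 (SE 0.0868, adjusted p = 0.0126 with limma), or 1.35-fold lower. The difference between these was 0.16, with a 95% interval from -0.10 to 0.42 and an adjusted p of 0.945, so no dependence on genotype was found. Without knockout high-fat replicate 2 the adjusted p in the knockout was 0.0677.

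Mrpl20, a large-subunit protein whose bacterial counterpart is needed early in assembly, was also lower. It read 8.77, 8.76 and 8.95 on the standard diet and 8.32, 8.48 and 8.43 on the high-fat diet in the wild type. The groups were separate, with a difference of -0.42 (SE 0.104, adjusted p = 0.032 with limma), or 1.33-fold lower. In the knockout it read 8.53, 8.65 and 8.88 against 8.30, 8.40 and 8.54, which overlap, with a difference of -0.27 (adjusted p = 0.143).

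Mrps31 codes for a small-subunit protein without a bacterial counterpart. It read 8.79, 8.85 and 8.77 on the standard diet and 8.48, 8.35 and 8.45 on the high-fat diet in the wild type, again without overlap. The difference was -0.38 (SE 0.1, adjusted p = 0.0412 with limma), or 1.30-fold lower. In the knockout the values of 8.50, 8.77 and 8.79 against 8.28, 8.45 and 8.58 overlapped, with a difference of -0.25 (adjusted p = 0.156). The interaction was 0.14 for Mrpl20 and 0.12 for Mrps31, with adjusted p-values of 0.949 and 0.956. Leaving out any 1 of the 3 wild-type standard arrays, or wild-type high-fat replicate 1 or 3, ended the call of both, with adjusted p-values up to 0.125 for Mrpl20 and 0.137 for Mrps31. Leaving out wild-type high-fat replicate 2 or knockout high-fat replicate 2 ended that of Mrps31 (0.111 and 0.0574).

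**Figure D2:**
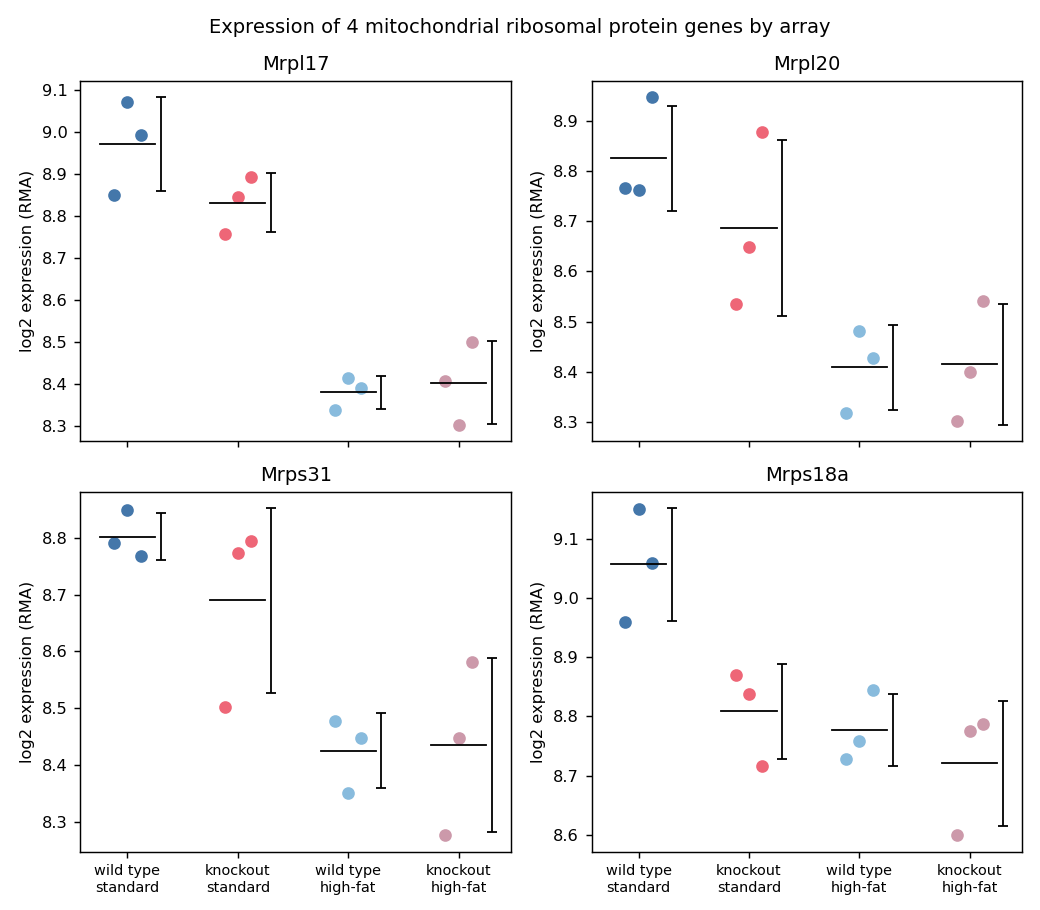
Log2 expression of Mrpl17, Mrpl20, Mrps31 and Mrps18a in each array by genotype and diet; points are arrays, horizontal lines group means and bars 1 SD (n = 3). All 6 high-fat arrays of Mrpl17 lie at 8.50 or below and all 6 standard-diet arrays at 8.76 or above, and Mrps18a is highest in the wild type on the standard diet.

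Mrps18a stood just outside the threshold between diets in the wild type. It read 8.73, 8.76 and 8.84 in the wild type on the high-fat diet and 8.60, 8.78 and 8.79 in the knockout. The 3 wild-type standard arrays, from 8.96 to 9.15, stood above all 9 others. The diet difference was -0.28 in the wild type (adjusted p = 0.0726), and the interaction was 0.19 (SE 0.124, adjusted p = 0.945). The genotype comparison on the standard diet and the diet comparison in the wild type share those 3 arrays.

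The family as a whole leaned lower on the high-fat diet in the wild type. The median difference was -0.10 against 0.04 for all genes, with 61 of 77 below 0 (79.2%, against 41.8%). Without wild-type standard replicate 3 the median was -0.06, and with median centring it was -0.17. An unadjusted p under 0.05 was found for 14 members lower (7.58% of genes) and 2 higher (15.1% of genes). The arrays of the diets did not overlap for 14 members lower (18.2%, against 10.9%) and 3 higher (3.90%, against 19.4%). The 3 higher ones were Mrpl9, Mrpl45 and Mrps6.

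In the knockout 1 member was called lower, Mrpl17, and 0 higher (1.30%), against 2.66% and 2.45% of all genes and 5.11% in either direction. An unadjusted p under 0.05 was found for 7 members lower (11.8% of genes) and 4 higher (9.86% of genes). The count of called members was 0 without knockout high-fat replicate 2, and 2 without wild-type high-fat replicate 3 or knockout high-fat replicate 1. The median difference was -0.05 against -0.01 for all genes, with 50 of 77 below 0 (64.9%, against 52.3%), and without knockout high-fat replicate 1 the median was 0.01 and without replicate 3 it was -0.08. Of 5 endothelial markers, 3 were above 0 in this comparison (median 0.06), with Stab2 called higher (0.41, adjusted p = 0.0322 with limma). Sets below 0 included all 5 bile duct markers (median -0.12), all 4 skeletal muscle markers (-0.49) and all 6 acute phase genes (-0.72), each with 0 called. The part of these sets was not tested. The arrays did not overlap for 12 members lower (15.6%, against 13.2%) and 5 higher (6.49%, against 10.6%). Mrpl52, a large-subunit protein without a bacterial counterpart, stood just outside the threshold. It read 8.57, 8.74 and 8.69 on the standard diet and 8.17, 8.41 and 8.44 on the high-fat diet in the knockout, a difference of -0.33 (adjusted p = 0.0509). Its wild-type arrays were apart in the same direction, at -0.29 (adjusted p = 0.0746). Mrps34 differed by -0.29 (adjusted p = 0.114) in the knockout.

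On the high-fat diet 16 of 77 members lay above 0 in the wild type and 27 in the knockout. Of all 19938 genes, 11600 and 9520 did. In the main fit 0 of these members passed the test, but Mrps6 and Mrpl45 each passed in the knockout under an alternative, as given at the end. Mrps6 read 7.80, 7.86 and 7.89 against 8.02, 7.96 and 8.18 in the wild type and 7.74, 7.87 and 7.79 against 8.03, 8.12 and 8.00 in the knockout. The diets did not overlap in either genotype, with differences of 0.21 and 0.25 (adjusted p = 0.166 and 0.112). Mrpl9 was likewise separate in both, at 0.13 and 0.23 (adjusted p = 0.363 and 0.11). Mrpl45, a large-subunit protein thought to help anchor the ribosome at the inner membrane, differed by 0.28 and 0.31 (adjusted p = 0.201 and 0.164), and its arrays overlapped in the knockout. Mrpl10 differed by -0.03 and -0.08, and Mrpl12 by -0.18 and -0.16, in the wild type and the knockout.

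**Figure D3:**
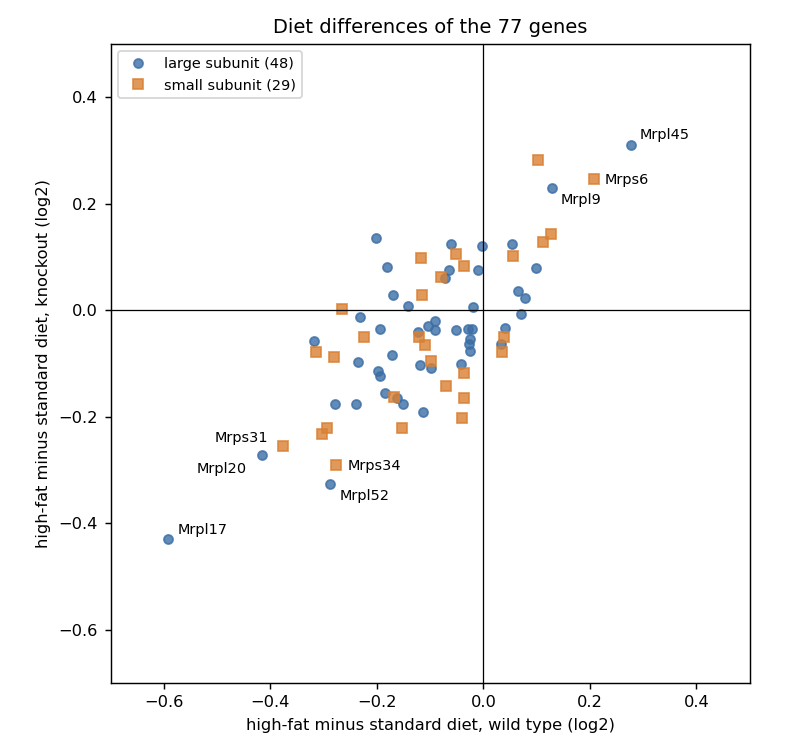
Diet difference of each of the 77 genes in the wild type (horizontal) and in the knockout (vertical), in log2 units, with large-subunit genes as circles and small-subunit genes as squares. The genes lowest on both axes are led by Mrpl17 at -0.59 and -0.43; 45 genes are below 0 on both axes and 11 above.

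By sign, 45 members were lower on the high-fat diet in both genotypes, 11 were higher in both, 16 were lower in the wild type only and 5 in the knockout only. No member was called for the interaction, that is for a response to diet that depends on genotype, coded as knockout less wild type (0% of genes were). Its median was 0.06 against -0.05 for all genes, with 25 of 77 below 0 (61.6% of genes), and 0 members had an unadjusted p under 0.05 (0.657% of genes above 0 and 4.08% below). That median was 0.02, 0.03 and 0.11 without knockout high-fat replicates 3, 2 and 1, 0.03 without wild-type standard replicate 3, 0.04 without wild-type high-fat replicate 1, and 0.14 with median centring. Mrpl15 (0.26), Mrps18a (0.19) and Mrps17 (0.24) had the smallest p above 0, and Mrps26 (-0.13), Mrps10 (-0.16) and Mrps28 (-0.11) below it, with adjusted p-values of 0.945 or more. The median half-width of the 95% interval was 0.304 here.

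Read per array, the family was highest on the wild-type standard arrays. The median deviation of the 77 genes from their own means over the 12 arrays was 0.05, 0.06 and 0.13 there. It was -0.003, -0.01 and 0.02 in the knockout on the standard diet, -0.03, -0.004 and -0.001 in the wild type on the high-fat diet, and -0.18, -0.03 and 0.03 in the knockout on the high-fat diet. The 3 wild-type standard arrays lay above the 9 others, and the lowest array, knockout high-fat replicate 1, stood below its group. Run and diet cannot be told apart here either, so the wild-type standard arrays share an apparent run only with the standard-diet knockout arrays. Taken relative to genes of the same range of levels, the wild-type standard arrays read 0.06, 0.09 and 0.12 and the others from -0.14 to 0.02. Those genes share the range but not the average level, 7.63 against 8.45 for members on wild-type standard replicate 1. A shift that varies with level is thus not removed by them. The SD of this median between arrays of a group, pooled over groups, was 0.0598.

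**Figure D4:**
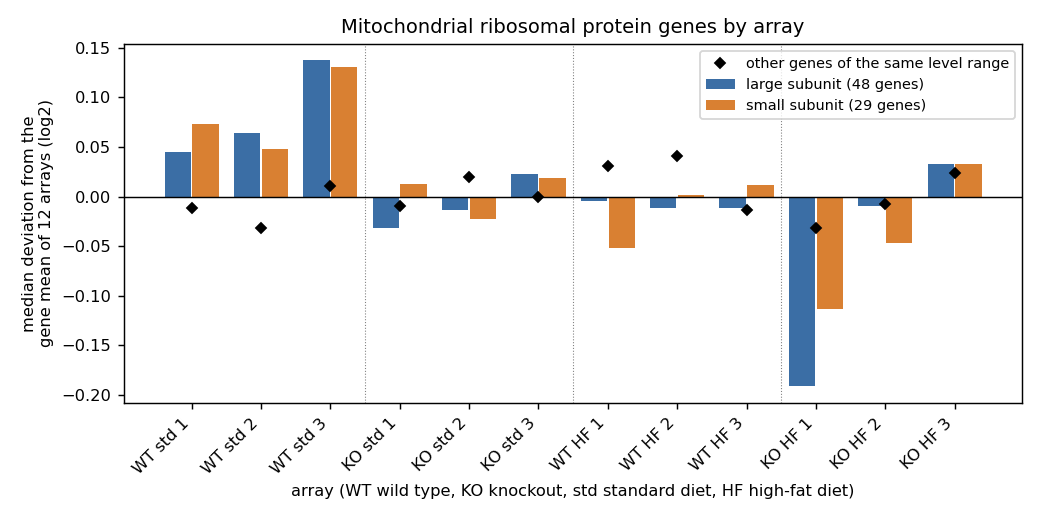
Median deviation of the 48 large-subunit genes (blue bars) and the 29 small-subunit genes (orange bars) from each gene's mean over 12 arrays, in log2 units, with other genes of the same level range as diamonds. Both subunits are highest on the 3 wild-type standard arrays and lowest on the first knockout high-fat array, where the large subunit reads -0.19 and the small -0.11. The diets appear to come from separate RMA runs.

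The medians of the large and the small subunit were set side by side, with no test. Between genotypes on the standard diet the medians were -0.08 and -0.08, with 40 of 48 and 23 of 29 genes below 0, and on the high-fat diet they were -0.03 and -0.03. Between diets they were -0.10 and -0.10 in the wild type and -0.04 and -0.07 in the knockout. The large-minus-small difference of the medians therefore ran from -0.01 to 0.03 over the 6 comparisons. With Mrps18a and Mrps30 counted in the large subunit, where structures place them, and Mrps36 left out, since its protein belongs to the 2-oxoglutarate dehydrogenase complex, it ran from -0.02 to 0.04.

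Members were also split into 45 classed as having bacterial counterparts and 31 classed as particular to mitochondria. Mrps18a was counted among the 31, and Mrps36 in neither group. The medians of the 45 and the 31 were -0.09 and -0.08 between genotypes on the standard diet. Between diets they were -0.07 and -0.12 in the wild type, with 73.3% and 90.3% of genes below 0, and -0.04 and -0.08 in the knockout, with 64.4% and 67.7% below 0. These gaps were not tested. The median diet difference in the wild type was -0.12 for the 25 members with an ETS match and -0.06 for the 43 without. It was -0.15 for the 12 with a YY1 match and -0.08 for the 56 without, and -0.05 for the 13 with an NRF1 match and -0.10 for the 55 without. In the knockout, with and without a match, the medians were -0.10 and -0.03 for ETS, -0.05 and -0.04 for YY1, and -0.06 and -0.04 for NRF1. The NRF1 gap thus had the other sign there, and no gap by motif was tested.

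The spread between arrays of 1 group was largest for 7 members. Chosen for this after the values were seen, they had a residual SD over 0.2: Mrpl50 (0.265), Mrps18c (0.242), Mrpl32 (0.239), Mrpl42 (0.23), Mrpl22 (0.227), Mrps33 (0.226) and Mrpl1 (0.223), the next being 0.172. Mrpl50, a large-subunit protein without a bacterial counterpart, read 8.66, 8.49 and 8.79 in the wild type and 8.15, 8.11 and 8.72 in the knockout on the standard diet, and 8.64, 8.87 and 8.26 against 8.22, 8.50 and 8.63 on the high-fat diet. On the standard diet 2 of the knockout arrays were low and the last was as high as the wild type.

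The 7 tended to be low on the same arrays. Knockout standard replicate 2 was the lowest of its group for 6 of them, knockout high-fat replicate 1 for 6, wild-type standard replicate 2 for 6 and wild-type high-fat replicate 3 for 5. Their mean deviation was -0.30 on knockout standard replicate 2 and -0.34 on knockout high-fat replicate 1, where the other 70 members averaged 0.01 and -0.15. Among their 21 pairs, the deviations from the group means over the 12 arrays had a median Pearson r of 0.76, from 0.03 to 0.99. Over all 2926 pairs of members the median was 0.21. These pairs share the same arrays and the genes were chosen for their spread, so the values are a description. Knockout standard replicate 2 is also the array with the highest skeletal muscle markers, and its part in this was not tested.

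**Figure D5:**
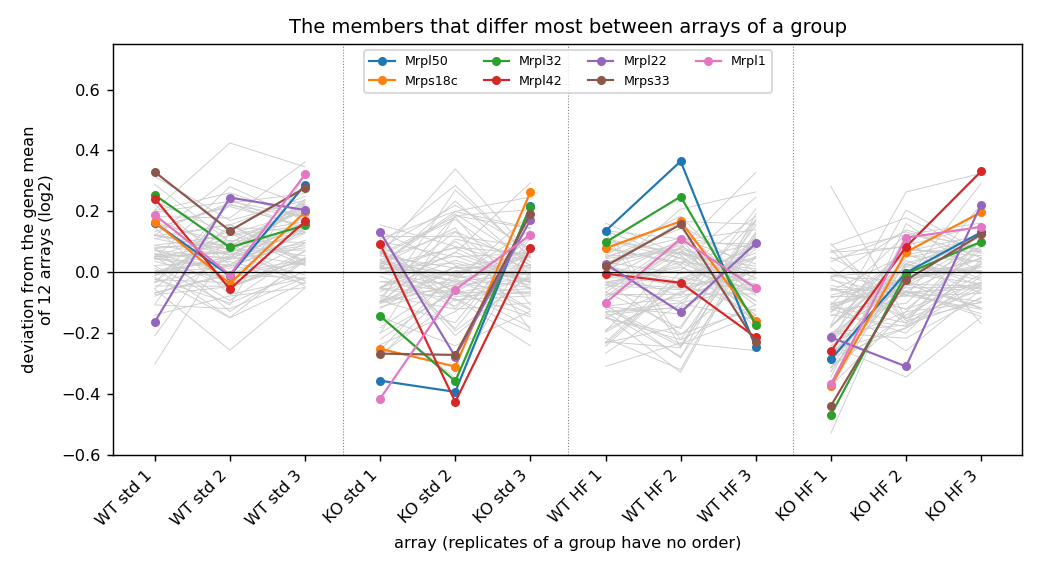
Deviation of each gene from its mean over the 12 arrays, in log2 units, by array; coloured lines are the 7 members with a residual SD over 0.2 and grey lines the 70 others, joined within a group only to guide the eye. The coloured genes are all below 0 on knockout standard replicate 2 and knockout high-fat replicate 1, by 0.30 and 0.34 on average. They run from -0.43 to -0.06 on the first of these arrays and from -0.47 to -0.21 on the second.

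Mrps33 had the largest difference of the family between genotypes, and it belongs to these variable genes. It read 9.31, 9.12 and 9.26 in the wild type and 8.72, 8.71 and 9.17 in the knockout on the standard diet, a difference of -0.36 (SE 0.154, adjusted p = 0.503 with limma). Its other probe set gave -0.28. Between diets in the wild type its probe sets gave -0.27 and 0.01.

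Of the 8 members with a second single-gene probe set, several disagreed on size or sign. For Mrpl47 the sets gave 0.03 and -0.32 between genotypes on the standard diet. For Mrpl51 they gave -0.28 and -0.003, and for Mrps36 0.11 and -0.21, between diets in the wild type. In that comparison Mrpl41 (-0.01 and 0.27) and Mrps5 (-0.12 and 0.04) also turned sign with the second set. For Mrpl27 (-0.24 and -0.29) and Mrpl23 (0.08 and 0.04) both sets had the same direction. The lower lean of the family between diets thus depends in part on the set used, where a second set exists. Mrpl17, Mrpl20, Mrps31 and Mrps18a have 1 set each.

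Few other genes of mitochondrial translation passed the test. Of 15 translation factors, 19 assembly and rRNA modification factors and 4 ribosome subunits under other symbols, 0 were called in any of the 6 comparisons. Of 19 genes for charging mitochondrial tRNAs, Gatb, a subunit of the amidotransferase that makes glutaminyl-tRNA, was higher on the high-fat diet in the wild type (0.32, SE 0.0877, adjusted p = 0.0458 with limma) and the knockout (0.41, SE 0.0877, adjusted p = 0.0171 with limma). Of 9 genes of mitochondrial DNA transcription and replication, 0 were called.

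Of 9 nuclear regulators of mitochondrial genes, 2 were called higher on the high-fat diet in the wild type. These were Ppargc1b, a coactivator of mitochondrial gene programmes (0.52, SE 0.124, adjusted p = 0.0273 with limma), and Yy1 (0.36, SE 0.1, adjusted p = 0.047 with limma). Of the 9 regulators, 4 were below 0 in that comparison, with a median of 0.04 and a lowest value of -0.83. Between genotypes 0 genes of these lists were called. On the standard diet the smallest p-values belonged to Guf1 (-0.40) among translation factors, Rbfa (-0.15) among assembly factors and Ptcd3 (-0.32) among the other subunits. In the remaining lists they belonged to Pars2 (0.27) among tRNA genes, Tfb2m (-0.36) among mitochondrial DNA genes and Ppargc1b (0.32) among regulators. Pars2 and Ppargc1b went against most of their lists. Of the 19 tRNA genes 14 were below 0 (median -0.06), and of the 9 regulators 7 were (median -0.15, lowest -0.97).

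Some transcripts for proteins of the cytosolic ribosome, which translates nuclear messages, passed the test between diets. Of 55 such genes, 12 were called lower on the high-fat diet in the wild type (21.8%, against 1.69% of all genes) and 6 in the knockout (10.9%, against 2.66%), with 0 higher in both, and the medians were -0.24 and -0.18. Rpl27 (-0.41), Rps10 (-0.46) and Rps3 (-0.37) had the smallest p in the wild type, and Rpl28 (-0.33), Rps3 (-0.34) and Rpl27 (-0.34) in the knockout. For the mitochondrial ribosome the counts were 3 and 1 of 77 and the medians -0.10 and -0.05. All these counts were made without a run offset, and run and diet cannot be told apart. Chemosensory receptors were called in either direction in 11.2% of cases in the wild type and 7.64% in the knockout. Between genotypes on the standard diet the cytosolic median was -0.09, with 48 of 55 below 0, against -0.08 and 63 of 77 for the mitochondrial genes. The difference between the ribosomes was not tested.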

How the data were processed

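Mouse liver RNA was measured on 12 Affymetrix arrays, 3 per genotype and diet by the labels. Per the labels, the authors deposited log2 expression values from RMA, run in Affymetrix Expression Console; its version and options are not given in the sources used here. Precision is limited by the number of arrays. Replicates are not stated to be separate animals, so p-values measure the spread between these arrays.

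Of 35557 probe sets, 21789 had 1 gene symbol, 1621 several and 12147 none in the annotation; the set with the highest mean was kept per gene, without further normalization. A mean per group was fitted to all 19938 genes and 12 arrays with limma 3.58.1 in R 4.3.3 (intensity trend, 8 residual degrees of freedom, Benjamini-Hochberg over all genes, adjusted p under 0.05). The code was tested on simulated data. Members and lists were chosen with earlier results of these data known. Named were up to 6 called members per direction and comparison by smallest p, or the 3 with the smallest p where fewer than 3 were called, plus Mrpl10 and Mrpl12; of other lists, up to 3 called genes per direction or the 1 with the smallest p. Same-numbered arrays of the groups correlated at -0.21 to 0.41 in their deviations, so numbers were not taken as pairs. Alternatives covered scaling, low-level filters, array weights, thresholds and left-out arrays.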

Additional observations from a re-analysis of the deposited data

How the results depend on the processing

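No result changed direction past the threshold under the alternatives run, and no comparison of genotypes or interaction had a called member under any of them. The counts that follow are of members called in either direction. Between diets in the wild type the count (3) was 14 with array weights, 6 with median centring, 5 with cyclic loess and 1 with all probe sets tested. It was 6 without knockout standard replicate 1 and wild-type high-fat replicate 3 together. It was also 6 at an adjusted p under 0.1, 1 under 0.01, and 0 with a run offset as added variance. Leaving out 1 array gave 1 to 5. In the knockout the count (1) was 2 with array weights, 3 with quantile normalization, 2 with cyclic loess and 0 with only the compared groups. It was 2 at an adjusted p under 0.1, 0 under 0.01 and 0 with the run offset. Leaving out 1 array gave 0 to 2. Some calls in the knockout were on the higher side. Over the alternatives the lowest adjusted p with limma there was 0.0481 for Mrps6 and 0.0281 for Mrpl45, both above 0 in every setting. With the replicate number as a block the knockout count was 2, through Mrpl52, that in the wild type was 4, and no count between genotypes left 0. Mrpl17 in the wild type lost its call only with the run offset (adjusted p = 1). With median centring the family medians were -0.15 between genotypes on the standard diet, -0.17 between diets in the wild type and 0.14 for the interaction. The large-minus-small difference between diets in the wild type was -0.0385 with quantile normalization, -0.0377 with cyclic loess, and -0.0381 to 0.0385 with 1 array left out. For the interaction it was -0.0231 with quantile normalization, -0.0262 with cyclic loess, -0.0246 without the 2 arrays together, and -0.0571 to 0.0321 with 1 left out. The cause of these shifts was not tested.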
